A study of Mus musculus with 2 samples.

Results

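The genes of tau, the structural microtubule-associated proteins (MAPs) and the stathmins were described in mouse hippocampus. The set holds 10 genes, matched by symbol among 55536 annotated mouse genes: Mapt, Map1a, Map1b, Map2, Map4, Map6, Stmn1, Stmn2, Stmn3 and Stmn4. Total RNA came from hippocampal tissue of 2 male B6CASTF1/J mice aged 36 days, a hybrid strain that pairs a C57BL/6J with a CAST/EiJ genome, and their labels name no treatment and no engineered allele. They form 1 group, as biological replicates 1 and 2 with 1 library each, so nothing could be compared between conditions. The labels name a layer of hippocampus without saying which part was dissected, and they give both samples the same donor identifier with different biosamples. They were taken as separate animals because the biosamples and replicate numbers differ, and the spread between the samples may be partly technical.

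Microtubules are polymers of tubulin that carry transport in axons and dendrites. Tau, MAP2 and MAP4 bind along the polymer through a row of related repeats near their carboxyl end. MAP1A and MAP1B are each made as a precursor that is cut into a heavy and a light chain, and MAP6 protects microtubules from cold. Stathmins act in the opposite way: they bind free tubulin dimers and favour disassembly, and phosphorylation weakens that binding. In neurons MAP2 protein is concentrated in cell bodies and dendrites and tau protein in axons. MAP1B and Stmn1 are known for high levels in the developing brain.

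Several of these proteins vary by exons that some transcripts hold and others skip. The reference sequences of 5 such exons are shown because the transcript results turn on them. The sequences were read from the GENCODE M21 transcripts of mm10, 5′ to 3′ on the coding strand, which is the plus strand for all 5. Capitals mark the exon and lower case the 15 bases that flank it on each side in the spliced transcript. Mapt has 2 consecutive alternative exons of 87 bases near its start, which encode acidic inserts in the amino-terminal part of tau. The upstream exon, chr11:104287123-104287209, is shown as it stands in Mapt-207, and the downstream exon, chr11:104289908-104289994, as it stands in Mapt-201.
Mapt upstream 87-base exon: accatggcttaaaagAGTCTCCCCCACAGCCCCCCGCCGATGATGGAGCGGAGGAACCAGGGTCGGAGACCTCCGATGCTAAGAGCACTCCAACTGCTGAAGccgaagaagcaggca
Mapt downstream 87-base exon: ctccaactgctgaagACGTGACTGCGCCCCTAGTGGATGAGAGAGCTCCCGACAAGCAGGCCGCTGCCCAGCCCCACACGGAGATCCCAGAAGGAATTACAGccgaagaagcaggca

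Map2 and Map4 each have a 93-base exon that encodes 1 of the microtubule-binding repeats. It lies at chr1:66431527-66431619 in Map2 and at chr9:110072613-110072705 in Map4. They are shown together because they are equal in length and close in sequence, while their use differed widely between the genes.
Map2 93-base exon: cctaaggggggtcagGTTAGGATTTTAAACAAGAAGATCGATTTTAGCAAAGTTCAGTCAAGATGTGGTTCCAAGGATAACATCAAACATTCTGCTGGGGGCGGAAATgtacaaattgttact
Map4 93-base exon: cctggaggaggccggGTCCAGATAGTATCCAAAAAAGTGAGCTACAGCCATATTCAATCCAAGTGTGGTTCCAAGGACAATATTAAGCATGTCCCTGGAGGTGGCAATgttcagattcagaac
Without gaps, the exons of Map2 and Map4 had the same base at 59 of 93 positions (63.4%).

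In Stmn4 the sequence that varied was an 81-base exon at chr14:66356269-66356349, shown as it stands in Stmn4-204.
Stmn4 81-base exon: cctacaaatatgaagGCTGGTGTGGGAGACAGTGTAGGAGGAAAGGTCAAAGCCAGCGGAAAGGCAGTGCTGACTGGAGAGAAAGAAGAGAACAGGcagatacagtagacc

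Each library had 3 deposited tables of 2 kinds. The first kind, called the first table here, comes from an alignment to the transcriptome and gives genes and transcripts an expected count and a TPM, a relative abundance corrected for length. The second kind, called the second table, estimates a count and a TPM per transcript from the reads and an index. Levels are first-table TPM unless the second table is named. Replicate 1 held 28786216 expected counts and replicate 2 held 29755033. Markers of the hippocampal fields were present in both libraries: all 4 for CA1, all 4 for CA3 and all 4 for dentate granule cells passed 1 TPM in each. All 10 genes of the set were detected in both, with expected counts between 2293 for Stmn4 and 59847 for Map1b, and none was among the 3457 genes marked as sharing reads with near copies. Stmn1 alone had counts that were not whole numbers, with a deposited posterior SD of 5.54 and 5.12 counts.

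Together the 10 genes gave 2090.01 TPM in replicate 1 and 1979.25 TPM in replicate 2, which was 0.469% and 0.455% of the TPM of all protein-coding genes. Tau and the 5 MAPs summed to 1408.4 and 1362.24 TPM, and the 4 stathmins to 681.61 and 617.01 TPM. The polymer-binding group was thus above the dimer-binding group in both libraries. Map2 stood highest and Map6 lowest, 10.8-fold apart in mean TPM. Of the 10 genes, 9 ranked within the top 3.54% of 22028 protein-coding genes, and Map6 ranked within the top 10.9%.

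Among the tubulin polymer binders, Map2 (ENSMUSG00000015222.17, chr1:66175273-66442583, plus strand), the dendritic MAP, had a level of 453 TPM in replicate 1 and 455 TPM in replicate 2 (454 ± 1.36, SD, n = 2). It ranked 69 among the protein-coding genes. Map1b (ENSMUSG00000052727.6, chr13:99421446-99516540, minus strand) had 289.7 and 287.6 TPM (289 ± 1.48). Map1b and Map2 were the genes that stood clear at the top, since neither range met that of a neighbour.

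Map1a (ENSMUSG00000027254.13, chr2:121289600-121310832, plus strand), the MAP1 form that takes over from Map1b as neurons mature, had 249.7 and 236 TPM in replicates 1 and 2 (243 ± 9.78). Map4 (ENSMUSG00000032479.15, chr9:109931460-110083955, plus strand), the member that is also found widely outside neurons, had 249.8 and 219.5 TPM (235 ± 21.4). The levels of Map1a and Map4 overlapped across the libraries, so their order was not resolved. Mapt (ENSMUSG00000018411.17, chr11:104231390-104332090, plus strand), the tau gene, had 123.9 and 122.8 TPM (123 ± 0.778), rank 570. Map6 (ENSMUSG00000055407.14, chr7:99267447-99337137, plus strand) had 42.3 and 41.5 TPM (41.9 ± 0.530), rank 2406. In both libraries tau mRNA was below the mRNA of all MAPs of the set except Map6.

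Among the stathmins, Stmn3 (ENSMUSG00000027581.12, chr2:181306459-181314500, minus strand) had the highest level, with 240.3 and 222 TPM in replicates 1 and 2 (231 ± 12.7). Its range overlapped that of Map4. Stmn2 (ENSMUSG00000027500.10, chr3:8509360-8561606, plus strand), a neuronal stathmin tied to axon growth, had 181 and 159.98 TPM (171 ± 15.1). Stmn1 (ENSMUSG00000028832.11, chr4:134468320-134473843, plus strand), the soluble founding member of the family, had 158 and 134 TPM (146 ± 17.1). Stmn4 (ENSMUSG00000022044.14, chr14:66344296-66361680, plus strand) had 102 and 101 TPM (102 ± 0.735). The 4 stathmins did not overlap each other in these 2 libraries, and Stmn1 and Mapt were neighbours that did not overlap either. With 2 libraries no permutation test can reach p = 0.05, so the order is given as ranges only.

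**Figure D1:**
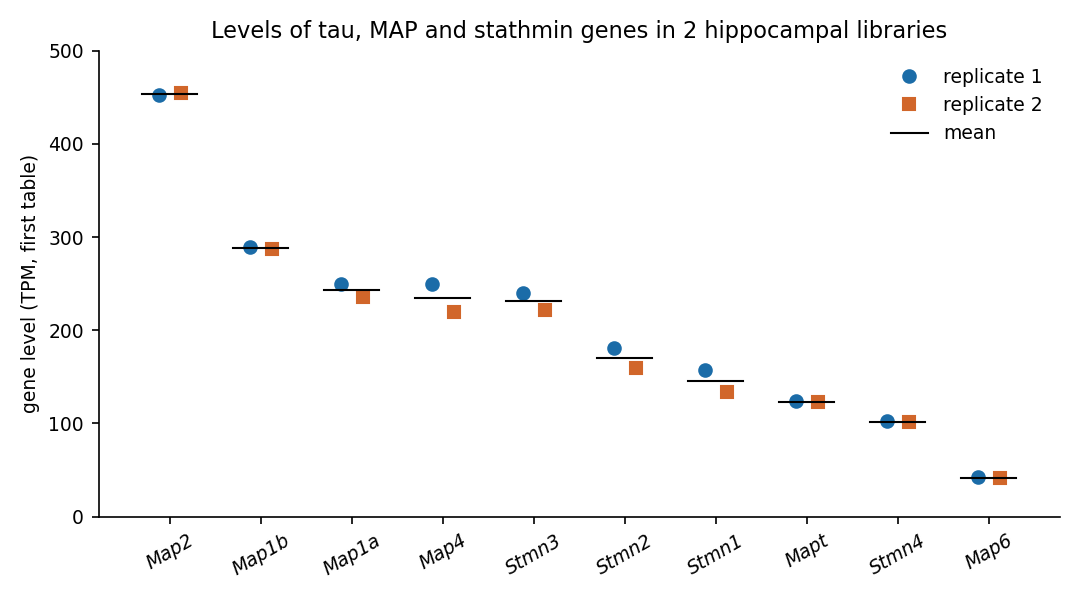
Level of each gene in TPM of the first table (vertical axis) in replicate 1 (circles) and replicate 2 (squares), with the mean of the libraries as a line, ordered by mean. Map2 sits near 454 TPM and Map6 near 41.9 TPM, and the ranges of Map1a, Map4 and Stmn3 overlap with their neighbours.

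The order depended on the table in the middle of the range. In the second table Map2 was again highest, with 870 TPM in replicate 1 and 900.5 TPM in replicate 2, and Map6 lowest, with 79.4 and 80.0 TPM. Stmn3 had 453 and 432 TPM, Map4 459 and 419 TPM, and Map1b 413 and 426 TPM. The range of Map4 overlapped that of Stmn3 and that of Map1b, while Stmn3 lay above Map1b in both libraries. Map1a had 361 and 356 TPM there, and Stmn1 had 357 and 313 TPM. Stmn4 stood above Stmn2 in the second table, with 287 and 297 TPM against 216 and 201 TPM, whereas in the first table it stood below it. Mapt had 188 and 179 TPM, above Map6 alone, whereas in the first table it was above Stmn4 as well.

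The counts of replicates 1 and 2 were compared gene by gene with an exact two-sided binomial test on library-scaled counts, adjusted by Benjamini-Hochberg over the 18270 genes that averaged 10 counts or more. This test covers counting error only and compares 2 animals of 1 group. Genes were called apart at an adjusted p under 0.05 and a difference of at least 1.5-fold. None of the 10 genes was apart, where 346 of all genes tested were (1.89%). Of those 346, replicate 1 was higher in 121 and replicate 2 in 225. Without the 1.5-fold minimum, 6 of the 10 differed by the exact binomial test at an adjusted p under 0.05, against 2078 of all genes tested (11.4%). At an unadjusted p under 0.05, 7 of the 10 differed.

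Stmn1 had the largest ratio between the libraries. Its expected counts were 3098.86 in replicate 1 and 2753.42 in replicate 2, a scaled ratio of 1.16 (95% interval 1.10 to 1.22; adjusted p = 9.67e-07, exact binomial test). Map4 had 15990 and 15144 counts and a ratio of 1.09 (1.06 to 1.11; adjusted p = 3.05e-11, exact binomial test). Stmn2 had 5383 and 5122 counts and a ratio of 1.08 (1.04 to 1.12; adjusted p = 0.00134, exact binomial test). These 3 were higher in replicate 1, as was Stmn3, with 5124 and 4971 counts and a ratio of 1.06 (1.02 to 1.10; adjusted p = 0.0340, exact binomial test). That made 4 of 10 higher in replicate 1 at this threshold, where 4.73% of all genes tested were.

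Map1b and Map2 were the pair that was higher in replicate 2, where 6.64% of all genes tested were. Map1b had 56741 and 59847 counts in replicates 1 and 2, a ratio of 0.975 (0.964 to 0.986; adjusted p = 0.000399, exact binomial test). Map2 had 43898 and 46267 counts and a ratio of 0.976 (0.963 to 0.989; adjusted p = 0.00397, exact binomial test). Both ratios lie close to 1, and the counts of Map1b are the highest of the set. The other 4 genes did not pass: the ratio was 1.01 for Map1a (1.00 to 1.03) and for Mapt (0.980 to 1.04), 0.993 for Map6 (0.944 to 1.04) and 0.971 for Stmn4 (0.916 to 1.03).

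The set is deeply counted, with a median mean count of 7537 per gene against 341 over all genes tested, and depth sets what the test can call. Among the 5307 genes that averaged 1000 counts or more, the test without a fold minimum called 24.1%. The median size of the log2 ratio, taken without sign, was 0.040 over the 10 genes and 0.058 over those 5307. The signed median was 0.015 over the 10 genes and 0.0010 over all genes tested. By scaled counts 6 of the 10 genes were higher in replicate 1 and 4 in replicate 2. The deposited TPM, which also carries each gene's estimated mean length, put 9 of 10 higher in replicate 1, and scaling by ERCC spike-ins put 4 of 10 higher there. The median over all genes tested moved the same way, to 0.030 by TPM and −0.037 with ERCC scaling. Stmn1, Map4, Stmn2 and Stmn3 were higher in replicate 1 and Map2 lower under each scaling and by TPM. Among the other 5 genes, Mapt and Map1a turned with ERCC scaling and Map1b, Map6 and Stmn4 turned by TPM.

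**Figure D2:**
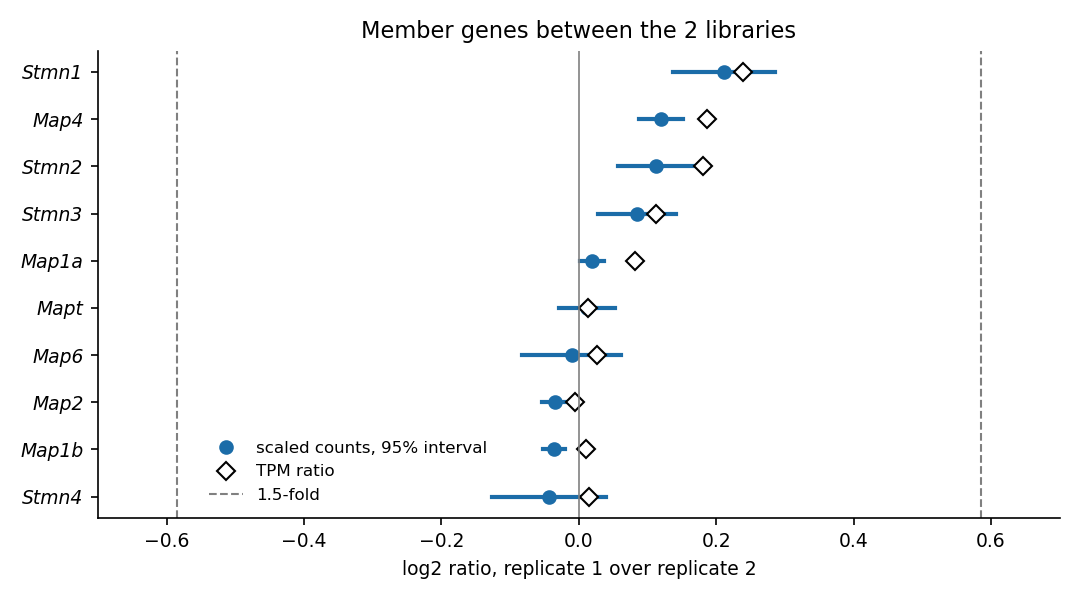
Log2 ratio of replicate 1 over replicate 2 (horizontal axis) for each gene, by scaled counts with the 95% exact interval (filled circles and bars) and by TPM (open diamonds), with dashed lines at 1.5-fold. All 10 genes lie inside the dashed lines, and Stmn1 lies farthest to the right at 1.16-fold.

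Marker genes moved between the libraries as well. All 4 CA1 markers were higher in replicate 1 (summed level 254 TPM in replicate 1 and 212 TPM in replicate 2), as were all 5 interneuron markers (381 and 346 TPM). At an adjusted p under 0.05 by the exact binomial test, all 4 CA1 but only 2 of the 5 interneuron markers differed. All 4 dentate granule cell markers were higher in replicate 2 (114 and 142 TPM), with Dsp called apart, and 5 of 6 immature neuron markers were too (30.7 and 33.9 TPM). At the same threshold all 4 dentate but only 1 of the 6 immature neuron markers differed. Dcx, the remaining immature neuron marker and itself a MAP, had 7.47 and 6.63 TPM. The 4 tested choroid plexus markers were all apart and higher in replicate 2, with a list sum of 4.13 and 184 TPM. By scaled counts all 4 astrocyte markers were higher in replicate 2, 3 of them at an adjusted p under 0.05 by the exact binomial test, with summed levels of 1257.25 and 1255.26 TPM. Of the 4 oligodendrocyte markers 3 were higher in replicate 1, 2 of them at that threshold (1511.91 and 1438.08 TPM). The CA3, oligodendrocyte precursor, microglia and endothelium lists had members higher in each library. Of the 4 excitatory neuron markers 3 were higher in replicate 1, 2 of them at that threshold. The other, Camk2a, was higher in replicate 2, also at that threshold, with 1346.56 and 1413.95 TPM. The list summed to 2613.04 and 2613.43 TPM, so the sum does not show these opposite moves. No marker of these lists was at 0 counts in either library. Their part in the ratios of Stmn1, Map4, Stmn2 and Stmn3 was not tested, and in bulk tissue fewer cells of a type and less RNA per cell cannot be told apart.

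Transcripts were compared as shares of their gene's TPM, for the 90 transcripts of the 9 genes with more than 1. Between the libraries 2 of 90 shares (2.22%) differed by at least 10 percentage points in the first table, where 8.34% of 72292 transcripts of all comparable genes did. Between the first and the second table, in the mean of both libraries, 13 of 90 (14.4%) differed by that much, where 21.2% of all did. These 13 belonged to 7 genes, and 4 of them are transcripts shorter than 500 bases. The leading transcript was the same in both libraries and both tables for 7 of the 9 genes, all but Map6 and Stmn4, where it was for 67.1% of all comparable genes. No test was run on shares, because the estimates carry assignment error that counts do not show.

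In both tables most Mapt TPM was assigned to the form without either 87-base insert. Mapt-204, with 1116 coding bases, skips both exons printed above and held 69.7% of Mapt TPM in replicate 1 and 68.6% in replicate 2 in the first table, and 70.4% and 74.5% in the second. Mapt-201, with 1290 coding bases and both inserts, held 8.21% and 7.22% in the first table and 10.9% and 10.7% in the second. Among transcripts that hold or skip it, the downstream 87-base exon was held by 10.4% and 9.41% of TPM in the first table and by 14.7% and 14.5% in the second. Skipping was the majority in all 4 columns. These shares are tied to annotated 3′ ends. Mapt-204 has a last exon of 4119 bases, while those of Mapt-201, Mapt-202 and Mapt-203, which hold both inserts, have 248, 216 and 216 bases. Reads from the longer 3′ end can thus be assigned to Mapt-204 whichever upstream exons their mRNA held, and the effect on the shares was not tested.

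The upstream 87-base exon looked more frequent than the downstream one in the first table only, at 21.8% and 25.1%, against 14.7% and 14.5% in the second. That gap rests mainly on Mapt-207, an annotated fragment of 293 bases that holds the upstream exon and lacks the downstream one. It took 10.3% and 14.4% of Mapt TPM in the first table from 50.8 and 74.1 expected counts, 0.523% and 0.747% of the gene's counts. The second table gave it 0 in both libraries. The upstream insert alone was thus measured in 1 kind of table and on few reads, in the fragments Mapt-207 and Mapt-208. No complete coding transcript with that insert alone is annotated, so the share of such an mRNA could not be estimated in either table.

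By the same shares, and with the same limit of annotated 3′ ends, larger tau inserts were rare. The 759-base exon was held by 2.07% and 1.55% of TPM in the first table and 2.76% and 2.63% in the second. For the 198-base exon the shares were 4.13% and 2.21% in the first table, and 4.81% and 3.19% in the second.

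Map2 mRNA was divided by its longest alternative exon. The 3741-base exon, chr1:66412407-66416147, separates the high molecular weight proteins from the short form known as MAP2c. Of the TPM in transcripts that hold the whole exon or skip it, holding made up 53.8% in replicate 1 and 53.7% in replicate 2 in the first table, and 53.4% and 53.2% in the second. Coding fragments that start or end inside the exon are left out of these shares: Map2-215, Map2-216 and Map2-223 end in it, and Map2-220 and Map2-221 start in it. The 5 fragments held 7.61% and 7.07% of all Map2 TPM in the first table and 13.5% and 14.1% in the second. Counted with the long kind, they bring it to 57.9% and 57.5% in the first table, and to 61.87% and 62.03% in the second. By either count the long kind was above the short kind in all 4 columns, and how far above depended on the fragments. The kinds also differ in their annotated 3′ ends. Map2-204 has a last exon of 397 bases, against 3790 in Map2-201 and 3792 in Map2-202. Part of the 3′ end is thus annotated only in transcripts of the short kind, and its effect on these shares was not tested. Map2-204, the only annotated transcript that holds the whole exon, has 5484 coding bases and held 42.1% and 42.1% of all Map2 TPM in the first table and 32.7% and 32.4% in the second.

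The short Map2 form with 1401 coding bases is shared by Map2-201, Map2-202 and Map2-205. Together they held 31.8% and 33.4% in the first table and 23.6% and 24.5% in the second. The tables divided this sum in opposite ways. Map2-201 had 29.9% and 29.2% in the first table, while the second left it at 0.00013% and 1.0e-05%. Map2-202 had 0.43% and 3.25% in the first table, against 22.5% and 24.2% in the second. These transcripts encode the same protein and differ in their 5′ ends and by 2 bases in the last exon, of 3790 and 3792 bases. A fragment, Map2-218 with 546 bases, held 4.91% and 5.31% in the first table and 21.2% and 19.8% in the second. Its second-table counts were 591 and 574, or 1.24% and 1.14% of the gene's counts.

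Use of the 93-base repeat exon was opposite in Map2 and Map4. In Map2 it was held by 3.80% and 3.47% of TPM in the first table, and 4.39% and 4.13% in the second. In Map4 it was held by 95.4% and 95.2% in the first table, and 87.3% and 85.6% in the second. Of all Map4 TPM, 51.6% and 52.3% held it and 2.49% and 2.61% skipped it in the first table. In the second, 40.9% and 40.1% held it and 5.97% and 6.72% skipped it. The last exon has 2106 bases in Map4-204, which holds the repeat exon, and 1333 in Map4-214, which skips it. The effect on the shares was not tested. The 93-base exons of Map2 and Map4 are of equal length and match at 59 of 93 bases, as shown above. The gap between the genes was wider than any difference between libraries or tables. The neighbouring Map4 exon of 114 bases was held by 13.3% and 14.0% in the first table and 16.4% and 17.3% in the second. Of the TPM that holds or skips it, a 3180-base Map4 exon was held by 9.02% and 8.49% in the first table, and 8.12% and 7.72% in the second. That was a small part of Map4 TPM, and the only holding transcript is a fragment. Of all Map4 TPM, 0.656% and 0.661% held the exon in the first table, and 0.632% and 0.634% in the second. Skipping made up 6.62% and 7.12% in the first table, and 7.15% and 7.57% in the second. Most Map4 TPM was thus outside these shares.

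Map4 TPM was spread over several transcripts. Map4-204, with 2799 coding bases, led with 34.0% and 34.6% in the first table and 22.4% and 21.8% in the second. Map4-206, with 297 coding bases and a last exon of 2994 bases, followed with 18.1% and 19.5% in the first table and 18.3% and 19.2% in the second. The noncoding Map4-209 had 17.3% and 15.6% in the first table, and 10.9% and 9.01% in the second. Map4-201, which carries the long coding sequence of 3375 bases, held 5.07% and 5.27% in the first table and 7.15% and 7.57% in the second. All noncoding transcripts of Map4 made up 25.6% and 23.9% of its TPM in the first table and 34.3% and 33.3% in the second. Map4-207, a noncoding transcript of 442 bases, accounted for 0.22% and 0.12% in the first table and 10.7% and 11.4% in the second. In counts it was small even in the second table, with 96.2 and 94.3 estimated counts, 0.555% and 0.576% of the gene's counts.

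Map1a and Map1b were simple by comparison, with no transcript past 10 points between tables or libraries. Map1a-202, with 8328 coding bases, held 82.8% and 83.3% of Map1a TPM in the first table and 83.5% and 83.6% in the second. Map1a-201, which has 9042 coding bases, held 12.4% and 14.0% in the first table and 15.2% and 15.3% in the second. Map1b-201, with 7392 coding bases, held 78.3% and 79.4% in the first table and 84.3% and 83.9% in the second. Noncoding transcripts made up nearly all of the remaining Map1b TPM, 20.6% and 19.7% in the first table and 14.6% and 15.2% in the second.

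Map6 held the 2 transcripts whose shares moved between the libraries. Map6-201 had 34.0% in replicate 1 and 10.5% in replicate 2, and Map6-205 had 23.4% and 43.0%, all in the first table. They encode the same 2718 coding bases and differ by 1 base in length, 3430 and 3431 bases. Their sum was 57.4% and 53.5%. The posterior mean shares of the same table were 28.6% and 22.6% for Map6-201 and 25.7% and 28.3% for Map6-205, under 10 points apart. The authors' bounds on the TPM of Map6-201 ran from 1.79 to 20.6 in replicate 1 and from 0.232 to 18.3 in replicate 2, and they overlap. In the second table Map6-201 had 15.9% and 14.6%, and Map6-205 had 24.9% and 24.3%.

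The shorter Map6 coding forms were steady. Map6-204, with 1704 coding bases, held 20.6% and 23.3% in the first table and 17.3% and 19.1% in the second. The 918-base coding form, of Map6-202 and Map6-206, held 16.4% and 17.9% in the first table, all in Map6-202, and 17.7% and 18.3% in the second. A 197-base exon, chr7:99317472-99317668, which the 2718-base form holds and the 918-base form skips, was held by 77.8% and 74.9% in the first table and 77.0% and 75.6% in the second. Map6-204 is left out of these shares: its last exon, of 2881 bases, starts at the same base, covers this exon and runs on past it. Counted as holding, it brings the shares to 82.6% and 81.1% in the first table, and 81.2% and 80.5% in the second. A noncoding transcript, Map6-209, was listed at 0 in the first table and had 18.5% and 17.8% in the second. Its second-table counts were 74.9 and 73.5, or 2.29% and 2.16% of the gene's counts. It also holds this exon, so the second-table shares of the exon include it. The 2718-base form itself held 57.4% and 53.5% of Map6 TPM in the first table and 40.9% and 39.0% in the second.

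**Figure D3:**
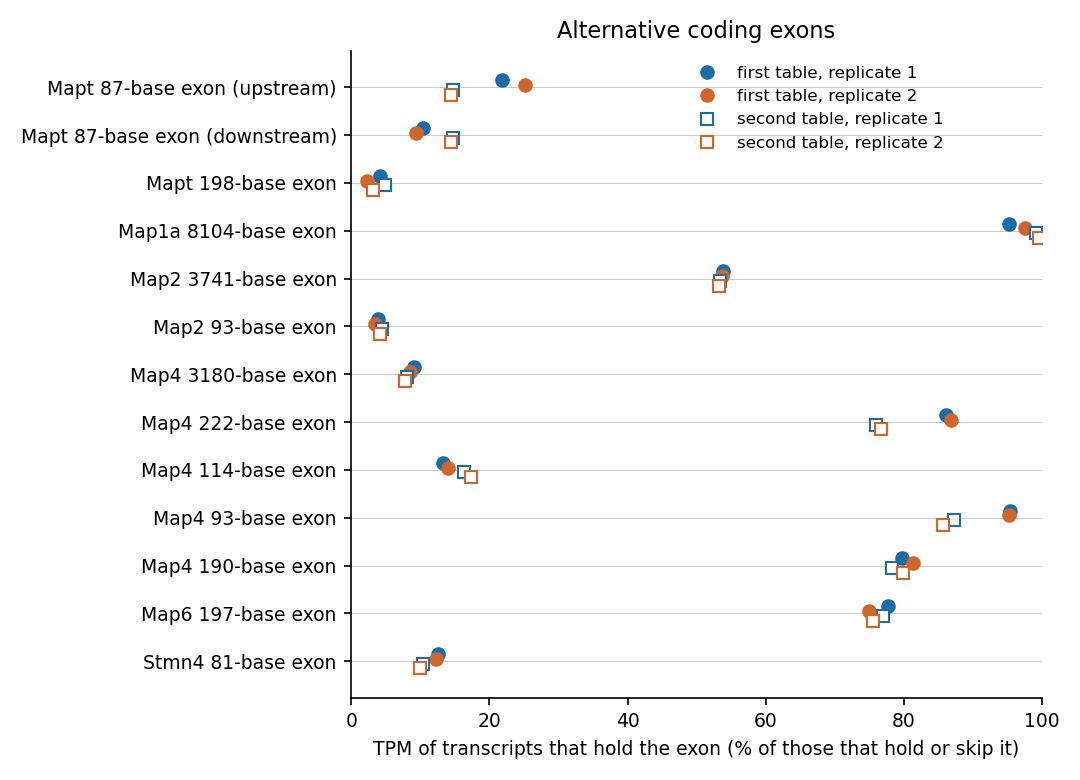
Share of TPM (horizontal axis, %) in transcripts that hold each alternative exon, of the TPM in transcripts that hold or skip it, for exons held by 3% to 97% in the mean of the first table, with exons of a gene within 1 point of each other drawn once, in the first table (filled circles) and the second table (open squares), with replicates 1 and 2 in different colours. The 93-base exon is at 3.47% to 4.39% in Map2 and at 85.6% to 95.4% in Map4, and the upstream Mapt exon of 87 bases is at 21.8% and 25.1% in the first table and at 14.7% and 14.5% in the second.

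Among the stathmins, Stmn3 has a single annotated transcript, Stmn3-201, and so shows no choice. Stmn1 was all but entirely of 1 protein form: transcripts with the same 447 coding bases held 98.7% and 98.5% in the first table and 98.8% and 99.4% in the second. The tables divided this form differently. Stmn1-201 had 98.2% and 97.8% in the first table and 72.2% and 72.3% in the second, while Stmn1-203 had 0.51% and 0.73% in the first and 26.6% and 27.2% in the second.

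Stmn2 showed a coding and a noncoding part in the first table only. Stmn2-201, its only coding transcript, held 69.0% and 71.5% in the first table and 99.1% and 99.3% in the second. Stmn2-203, a noncoding transcript of 308 bases within the 3′ part of the gene, held 30.2% and 28.0% in the first table and was at 0 in the second. In counts it was small even in the first table, with 235 and 202 expected counts, 4.37% and 3.94% of the gene's counts.

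Stmn4 was the gene on which the tables differed most. Stmn4-201, with 567 coding bases, held 72.0% and 76.6% in the first table and 36.5% and 39.3% in the second. The second table instead gave 45.1% and 46.2% to Stmn4-209, a fragment of 418 bases, which held 0.76% and 0 in the first. In counts Stmn4-209 took 226 and 242 of the second table's estimated counts for Stmn4, or 10.3% and 10.5%. The 81-base exon printed above was held by 12.5% and 12.2% in the first table and by 10.3% and 9.98% in the second, so its use differed little between the tables although the leading transcript did.

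**Figure D4:**
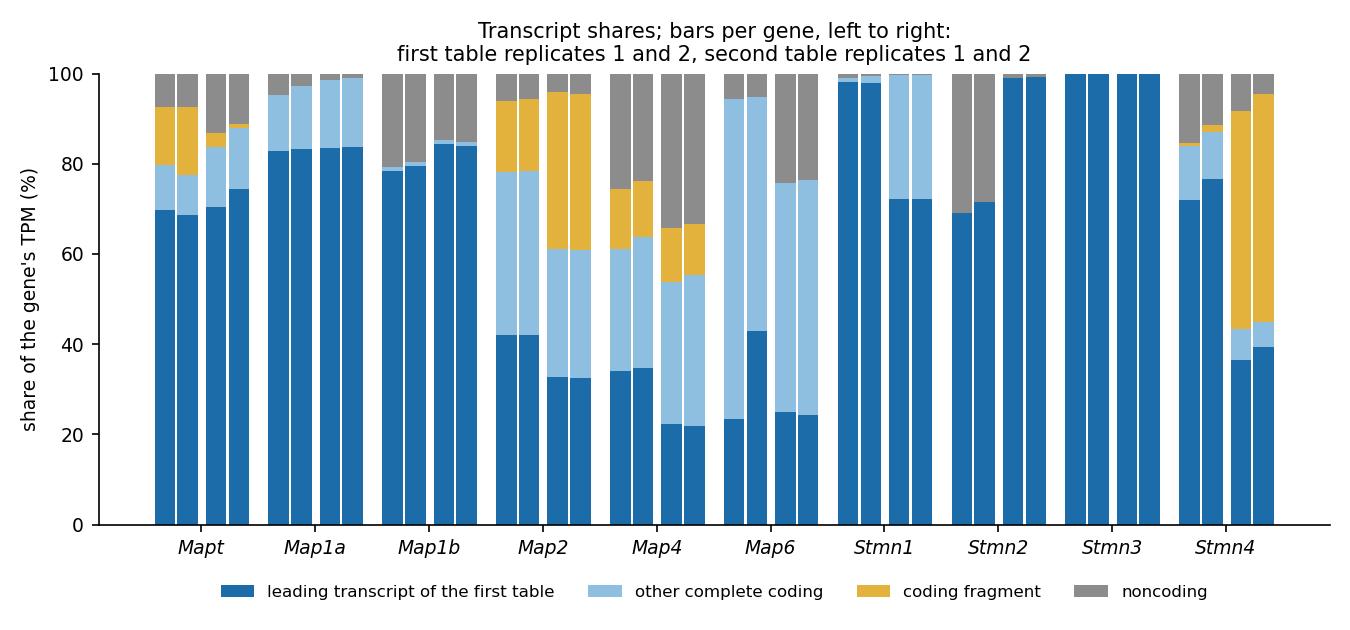
Share of each gene's TPM (vertical axis, %) in the leading transcript of the first table, in other complete coding transcripts, in coding fragments and in noncoding transcripts, with 4 bars per gene for the first table and then the second table, replicates 1 and 2 in each. Paired bars of 1 table are close in height, apart from Map6, and the tables part most for Stmn4 and Stmn2.

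Gene levels were then set side by side between the kinds of table. All 10 genes had a lower TPM in the first table than in the second, as did most genes: over all 14870 genes with at least 1 TPM in both libraries, the median log2 difference of the first over the second was −0.75. A class of short RNAs annotated as misc_RNA held 36.8% of the TPM of replicate 1 and 37.9% of that of replicate 2 in the first table, and 0.00444% and 0.00428% in the second. TPM sums to the same fixed total in every table. Past 1.5-fold were 6 of the 10 genes, where 85.2% of all genes were.

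Relative to the median of all genes, 1 of the 10 lay past 1.5-fold, where 10.6% of all genes did. This was Stmn4, whose first-table level was 0.585 of its second-table level on that scale, at percentile 2.49 of all genes. Stmn1 followed at 0.732, and Stmn2 lay at the other end at 1.38. The remaining 7 genes were between 0.862 for Map2 and 1.16 for Map1b. Counts moved less than levels: the first over the second table's gene count was 0.829 for Stmn1, 1.05 for Stmn4 and at least 0.921 and under 1 for the other 8. In Stmn4 and Stmn1 the second table gave 45.1% to 46.2% and 26.6% to 27.2% of TPM to a shorter transcript that the first table put under 1%. The same kind of shift, to Map6-209 and to Map4-207, was seen in Map6 and Map4, whose levels on that scale were 0.883 and 0.899.

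**Figure D5:**
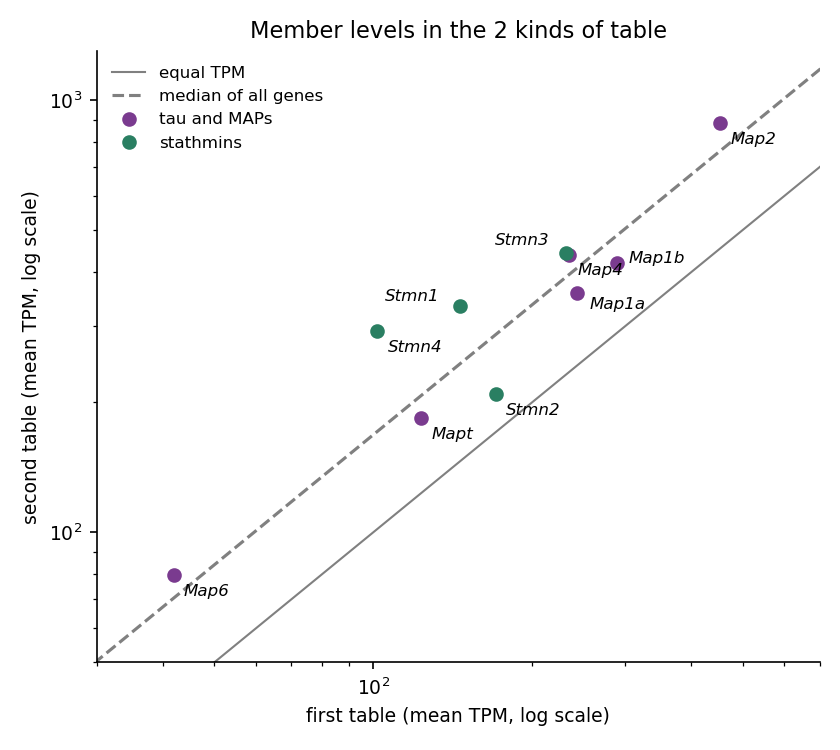
Mean TPM over both libraries in the first table (horizontal, log scale) and the second table (vertical, log scale) for each gene, with a solid line at equal TPM and a dashed line at the difference of the median gene. All 10 genes lie above the solid line, Stmn4 lies farthest above the dashed line and Stmn2 farthest below it.

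Some genes of the set overlap other annotated genes, and the strand setting of the counting is not given in the sources used here. The antisense genes Gm11659 at Mapt, Gm14978 at Map1a, Gm10558 at Map2 and Gm43732 at Map4 had 0 counts in both libraries, which by counting error allows up to 0.105 CPM in replicate 1 and 0.101 CPM in replicate 2. Ppip5k1, on the opposite strand, shares 272 bases with Map1a and had 3092 and 3097 counts. Reads in those 272 bases cannot be told apart without the strand. The deposited Map1a counts were whole numbers with a posterior SD of 0 in both libraries, so they record no read divided with another gene.

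The partners of these proteins were described from 6 lists of 73 microtubule genes, all found and 71 of them tested. None of the 71 was apart between the libraries, beside the 1.89% of all genes tested. Without the fold minimum 10 of the 71 differed, where 11.4% of all genes tested did and 24.1% of those averaging 1000 counts or more. Replicate 1 was higher in 6 of the 10 and replicate 2 in 4. Of the 73 genes, 67 passed 1 TPM in both libraries.

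Of 23 other structural MAPs, 22 passed 1 TPM. Dclk1, a doublecortin-like kinase that binds microtubules, led with 249 and 242 TPM, at about the level of Map1a. Tppp, a tubulin polymerisation-promoting protein of oligodendrocytes, had 111 and 107 TPM, and Map7d3 had 0.03 and 0.03 TPM. All 5 genes of the list of Map1lc3 and Gabarap genes, which act in autophagy, passed 1 TPM. Gabarapl1 led with 258 and 242 TPM, followed by Map1lc3a with 94.9 and 90.5 TPM. Without a fold minimum Dclk1 in the first list and Gabarapl1 in the second differed, both higher in replicate 1, and the median log2 ratios were 0.0010 and 0.011.

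The list of kinases known to phosphorylate tau, MAPs or stathmins holds 19 genes, with the Cdk5 regulatory subunits Cdk5r1 and Cdk5r2 among them. All 19 passed 1 TPM. Camk2a had 1346.56 and 1413.95 TPM and Camk2b 429 and 456 TPM, and both are subunits of the calcium/calmodulin-dependent kinase II. Without a fold minimum 6 of the 19 differed, beside the 11.4% of all genes and the 24.1% of deeply counted ones: Cdk5r2, Mapk8 and Mapk10 were higher in replicate 1, and Camk2a, Camk2b and Dyrk1a were higher in replicate 2. Cdk5r2, Mapk8, Mapk10 and Dyrk1a are named here after their values were seen. The median log2 ratio of the list was −0.020. The 6 subunits of the phosphatase PP2A, which removes phosphate from tau, were led by the scaffold Ppp2r1a with 238 and 222 TPM and the regulatory subunit Ppp2r2c with 151 and 159 TPM. Without a fold minimum 2 of these 6 differed, beside the same 11.4% and 24.1%. Ppp2r2b, also named after its values were seen, was higher in replicate 1 and Ppp2r2c higher in replicate 2. The median log2 ratio was 0.019.

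Severing and turnover factors were the lowest list, with a median level of 7.01 TPM over 9 genes. Kif2a, a microtubule-depolymerising kinesin, had 50.5 and 48.6 TPM and Katnal1, a katanin-like severing enzyme, 23.6 and 26.3 TPM. Fign, Fignl1, Kif2c and Kif18a stayed under 1 TPM in both libraries, with 0.68 and 0.70, 0.36 and 0.19, 0.14 and 0.18, and 0.50 and 0.55 TPM. Of 11 tubulin modifiers 10 passed 1 TPM, led by Agtpbp1, a deglutamylase, with 156 and 137 TPM and Sirt2, a deacetylase of tubulin, with 64.2 and 64.1 TPM. Vash2, a detyrosinating enzyme, had 0.80 and 0.77 TPM. In neither list did a gene differ at an adjusted p under 0.05 by the exact binomial test, and the median log2 ratios were 0.039 and 0.041.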

How the data were processed

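Per the labels, RNA was column-purified, each library took 300 ng of it, and ERCC spike-ins were added. The authors deposited expected counts and TPM per gene, and per transcript also the share in its gene as a percent (first table), and an estimated count and TPM per transcript (second table). Per the file headers the columns are those of RSEM and of kallisto, and the description deposited with them names mm10 and GENCODE M21. The sources used here give no program versions. ERCC rows (0.421% and 0.408% of counts) and other rows without a gene stayed out of tests.

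Expected counts were rounded for tests and scaled by edgeR's TMM factors (edgeR 4.0.16, R 4.3.3), adding 0.5 to counts for folds. Intervals are exact 95% Clopper-Pearson intervals, and they and the limit of 3 counts for a gene at 0 cover counting error only. Reads carry no molecular identifiers. Effective length was the length minus 99 bases in the first table. In the second it was the length minus 339.1 and 342.1 for long transcripts, in replicates 1 and 2, and short transcripts lost fewer bases. Mapt-207, of 293 bases, had 64.2 and 64.1 there. Transcript comparisons used genes with at least 2 transcripts and a mean count of at least 100. Shared reads were marked where a deposited count lay over 0.005 from a whole number with a posterior SD of 1% of it or more. Folds between tables added 0.01 TPM. Exon coordinates came from GENCODE M21, and coding shares join transcripts with the same coding coordinates.

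The genes and lists were chosen with earlier results of these data known. Named were all 10 genes, their leading transcripts, those of at least 10% and those farthest apart between tables, and of each list the 2 highest genes and those under 1 TPM. The test was tried on simulated counts. Alternatives were other scalings, count minimums, thresholds, tables and leaving out a library. Some sequence of the set is not reported here.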

Additional observations from a re-analysis of the deposited data

How the results depend on the processing

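The number of genes apart between the libraries was 346, and 318 to 378 with other scalings, no count minimum or second-table counts. It was 113 over genes averaging 100 counts or more, 215 without genes that share reads, 2078 without a fold minimum and 1279 over genes averaging 1000 or more without a fold minimum, an alternative chosen after seeing the data. None of the 10 genes was apart under any of these except without a fold minimum, where 6 were. The log2 ratio turned to −0.026 for Mapt and −0.019 for Map1a with ERCC scaling, and to 0.010 for Map1b, 0.026 for Map6 and 0.015 for Stmn4 by TPM. Over all genes tested the median log2 ratio was −0.037 with ERCC scaling and 0.030 by TPM. The median level of the 10 genes was 200.3 TPM, 346 in the second table, 455 with TPM rescaled over protein-coding genes and 189.75 to 210.8 in single libraries. Transcript shares past 10 points between libraries were 2, and 0 with posterior means, 0 in the second table and 1 at 20 points. Between tables they were 13, and 22 at 5 points, 8 at 20 points and 14 to 15 in single libraries. Genes past 1.5-fold between tables were 6, and 2 at 2-fold, 7 in single libraries and 1 relative to the median of all genes, also chosen after seeing the data. The cause of these shifts was not tested.

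Leaving out a library ends the comparison between libraries, so it gives no value there. No paired analysis was possible because the samples form 1 group. With 1 library per animal, the difference between animals cannot be told apart from dissection or library preparation, and short transcripts rest on few reads.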

Other observations

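Within the introns or ends of these genes lie short annotated genes on the same strand that had counts of their own. 5330431K02Rik in Map1b had 239 counts in replicate 1 and 282 in replicate 2. Gm42433 in Map4 had 137 and 113 counts, Gm42432 in Map4 had 18 and 16, and Gm45591 in Map6 had 55 and 49. In all, 15 annotated genes overlap 7 of the 10 genes. Among those on the same strand, the largest relative to the gene it lies in was Gm45591, at 1.79% of the Map6 count in replicate 1 and 1.54% in replicate 2.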
